A study of Caenorhabditis elegans with 6 samples.

Results

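Nuclear hormone receptors are transcription factors with a zinc finger DNA-binding domain and a pocket that in many members binds a small lipophilic ligand. The nematode Caenorhabditis elegans carries a greatly enlarged family, most of it derived from an ancestor resembling the vertebrate factor HNF4. Members with known functions link fat metabolism, diet and toxins to transcription, largely in the intestine, and others time development in the skin and gonad. The genes described here were the rows whose RefSeq symbol was nhr followed by a number, leaving out nhr-10, nhr-23, nhr-25, nhr-68 and nhr-80. There were 264 such genes among 20894 rows of the expression table. All 264 were annotated as protein-coding.

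RNA was sequenced from whole animals, labelled as adults, feeding on Escherichia coli OP50, the usual laboratory food. The 2 groups were the wild-type strain N2 and the mutant bcf-1(ylf1), whose affected gene encodes BCF-1, a protein that the series title places in the intestine and describes as N-glycosylated and bacteria-binding. Each genotype had 3 libraries, independent biological replicates per the series design text, and neither the lesion of the ylf1 allele nor the age of the animals is given in the labels. Values are read as FPKM (fragments scaled to transcript length and to the mapped fragments of the library), a unit inferred from the table, so levels of different genes below are compared per length.

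The targeted gene bcf-1 stood at 374, 412 and 499 FPKM in the N2 libraries and at 63.7, 72.1 and 60.01 FPKM in the mutant libraries, 6.56-fold lower on average. Library values summed to between 659249 and 687573 FPKM, and the sequencing depth is unknown. Over 13576 tested genes, limma called 49.6% at an adjusted p under 0.05, with 34.6% higher and 15% lower in the mutant. Across all tested genes the median log2 change was 0.24, and each change below stands against that shift. The N2 libraries differed from each other in oocyte transcripts. The sum of 6 oocyte markers was 557, 212 and 374 FPKM in N2 replicates 1, 2 and 3, and 184 to 211 FPKM in the mutant. Without N2 replicate 1, 36 nhr genes were higher and 26 lower, against 37 and 28 with all libraries. The counts were 36 and 20 without N2 replicate 2, and 29 and 22 without N2 replicate 3.

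The family was expressed at low levels with a few abundant members. The receptor gene nhr-49, the marker of the family, was present in every library at 42.1 FPKM or more. Averaged over the 6 libraries, 28 of the 264 genes reached 10 FPKM, 129 lay between 1 and 10 FPKM and 107 were below 1 FPKM. The 8 most abundant genes held 29.9% of the summed family level. That sum was 1175 to 1341 FPKM in N2 and 1216 to 1252 FPKM in the mutant, so the genotypes overlapped. Between 143 and 149 family genes reached 1 FPKM in an N2 library, against 162 to 165 in a mutant library, without overlap. The median over all rows of the table was also higher in the mutant, at 3.95 to 4.37 FPKM against 2.94 to 3.17 FPKM in N2.

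The most abundant transcript was that of nhr-114, a receptor known to protect the germline from poor diets. It lay at 95.6, 121 and 104 FPKM in N2 and at 91.1, 88.4 and 87.7 FPKM in the mutant. In N2 it lay above nhr-97 (72.5, 70.0 and 62.5 FPKM) in all libraries. In the mutant the libraries of these 2 genes overlapped, since nhr-97 stood at 80.9, 81.98 and 88.6 FPKM. Neither gene passed the test (limma adjusted p = 0.112 for nhr-114 and 0.0623 for nhr-97), but nhr-114 was called lower with median-ratio scaling (log2 change -0.53, adjusted p = 0.0166) and nhr-97 higher with quantile normalisation (0.37, adjusted p = 0.0151), and each also without N2 replicate 1. Below them in N2 came nhr-49, nhr-31 and nhr-8, whose N2 libraries overlapped between 37.3 and 48.2 FPKM. In the mutant these 3 separated. There nhr-49 lay at 63.1 to 66.8 FPKM, nhr-31 at 38.2 to 38.3 FPKM and nhr-8 at 16.9 to 18.3 FPKM. By mean level nhr-8 went from rank 5 of the family in N2 to rank 11 in the mutant, nhr-69 from 6 to 16, nhr-3 from 7 to 20 and nhr-35 from 10 to 19. In the other direction nhr-41 went from rank 17 to 6 and nhr-40 from rank 34 to 12.

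Of the 264 genes, 162 had at least 1 FPKM in at least 3 libraries and were tested. Among them 37 rose (22.8%) and 28 fell (17.3%) in the mutant, against 34.6% and 15% of all tested genes. Of the 37 rises, 10 were of genes that passed the level filter through the mutant libraries alone, and 1 of the 28 falls was of a gene that passed through N2 alone, so these counts depend in part on the filter. Groups did not overlap in 92 of the 162 genes (56.8%), against 58.4% of all tested genes. The median log2 change of the tested family genes was 0.04, with an interquartile range of -0.30 to 0.35 and extremes of -1.63 and 2.28. Without mutant replicate 1 the counts were 20 higher and 15 lower, without mutant replicate 2 they were 21 and 22, and without mutant replicate 3 they were 21 and 20. The filter was applied again after a library was left out, so 152, 149 and 150 family genes were tested there. The 10 rises of genes that had passed through the mutant libraries alone could not be called in these fits, which fixes part of the drop.

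The balance of rises and falls depended on the scaling between libraries. After median-ratio scaling 24 family genes were higher and 54 lower (22.3% and 23.5% of all genes), and after quantile normalisation 21 and 63 (24% and 20.6% of all genes). The family median was -0.18 and -0.31 under these scalings, where the median of all genes was -0.01 and 0.07. All 28 falls kept their direction and call under each scaling, whereas 24 of the 37 rises kept theirs with median-ratio scaling and 20 with quantile normalisation. Both scalings moved the family median down, which favours falls over rises, so this difference does not show that falls were more reliable. Without any level filter 238 family genes were tested, of which 51 rose and 24 fell, against 27% and 11.6% of all genes so tested. Over all 12 alternatives, or as many as had a value for the gene, 19 rises and 15 falls kept their call.

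The N2 levels of rises and falls differed, in part by construction, since the filter and the direction of a call bear on the N2 level. The median N2 level was 1.36 FPKM for the 37 rises, 7.75 FPKM for the 28 falls and 4.52 FPKM for the 97 genes that did not pass. Changes of at least 1 log2 unit were found in 14 rises and 4 falls, and the share over all tested genes was not counted. Among them nhr-259, nhr-155, nhr-244, nhr-7 and nhr-67 passed the level filter through the mutant libraries alone, and nhr-123 through N2 alone. The unit understates changes of faint genes, since log2 changes are on the log2(FPKM + 1) scale. Within genotypes the median SD of a tested family gene was 0.14 in N2 and 0.13 in the mutant on that scale, against 0.21 and 0.14 over all tested genes.

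**Figure D1:**
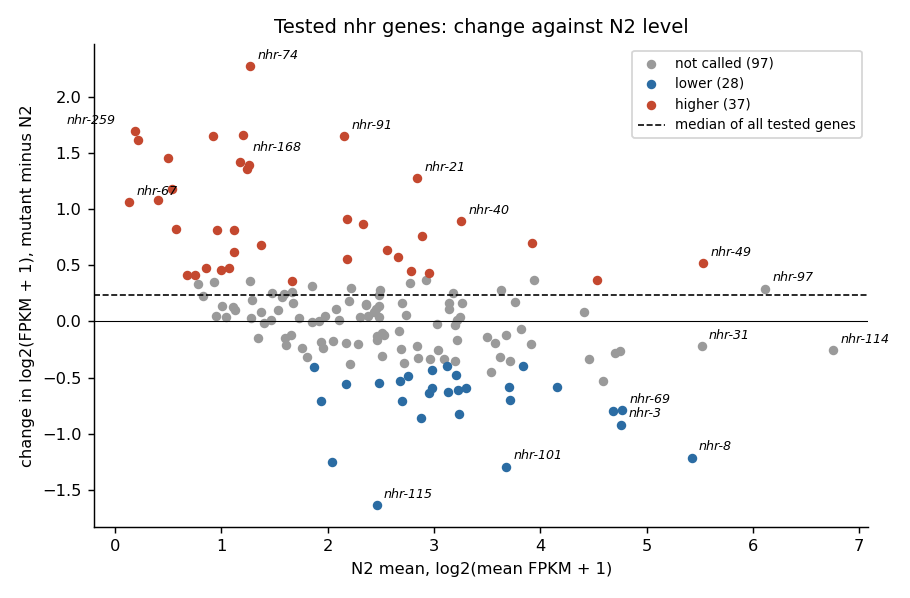
Change in log2(FPKM + 1), mutant minus N2, of each tested nhr gene (vertical axis) against the log2 of its mean N2 FPKM plus 1 (horizontal axis), with points coloured by the limma call. The dashed line is the median of all tested genes at 0.24, and most rises lie at low N2 levels, where genes under 1 FPKM in N2 could pass the filter only through the mutant, while nhr-8, nhr-3 and nhr-69 fell from high levels.

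Receptors of fat metabolism moved in both directions. nhr-49 (K10C3.6; chromosome I, 9869718 to 9874626, WBcel235 for all positions) encodes an HNF4-like receptor that drives fatty acid desaturation and beta oxidation. Its N2 libraries lay at 45.3, 48.2 and 42.1 FPKM and its mutant libraries at 66.1, 66.8 and 63.1 FPKM. All mutant libraries were above all N2 libraries. Its mean was 1.44-fold higher, a log2 change of 0.52 (SE 0.11, limma adjusted p = 0.00499), which is 0.29 above the median of all genes. The call was lost after median-ratio scaling, at a log2 change of 0.25 and an adjusted p of 0.117 (0.00304 to 0.117 over the alternatives).

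The receptors known as partners of NHR-49 had less certain changes. nhr-66, known to act with NHR-49 on sphingolipid genes, went from 24.4, 20.4 and 21.7 FPKM in N2 to 26.1, 28.6 and 32.2 FPKM in the mutant. Its log2 change of 0.37 lay at the threshold (limma adjusted p = 0.0497), and the call was lost in 11 of 12 alternatives, the exception being the one without N2 replicate 1 (adjusted p from 0.0215 to 0.492). nhr-13, known to act with NHR-49 on desaturase genes, lay at 6.95, 6.76 and 4.71 FPKM in N2 and at 4.98, 4.001 and 6.54 FPKM in the mutant, and the libraries overlapped (adjusted p = 0.405). nhr-62, needed for long life under dietary restriction, and the HNF4-like nhr-64 had log2 changes of -0.20 and -0.14 (limma adjusted p = 0.305 and 0.443).

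Both falls of this list held under every alternative run. nhr-69 (chromosome I, 9879183 to 9881504), an HNF4-like receptor that works with the Smad protein DAF-8 in insulin-like peptide secretion, lies close to nhr-49. It fell from 25.4, 28.2 and 25.2 FPKM in N2 to 13.9, 14.97 and 15.4 FPKM in the mutant. The groups were far apart, and the mean was 1.78-fold lower, with a log2 change of -0.79 (SE 0.13, limma adjusted p = 0.000945). nhr-76 (chromosome IV, 627537 to 633963), known from serotonin-driven fat loss, fell from 9.26, 7.77 and 8.12 FPKM to 5.45, 4.75 and 5.18 FPKM (1.64-fold lower, adjusted p = 0.00674). Of the 7 genes of the list 2 rose and 2 fell, where 34.6% of all tested genes rose and 15% fell. The median log2 change of the list was -0.20 against 0.24 for all tested genes.

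Genes regulated through NHR-49 were also split. The list held 8 genes described as its targets, of which 7 were tested, 4 fell and 2 rose, where 15% of all tested genes fell and 34.6% rose. cpt-5, for a carnitine palmitoyltransferase, fell from 42.2 ± 4.95 to 7.86 ± 1.53 FPKM (SD, n = 3 each, log2 change -2.30), and the desaturase gene fat-7 from 99.7 ± 14.3 to 31.6 ± 1.74 FPKM (-1.62). The acyl-CoA synthetase gene acs-2 went from 54.6, 28.3 and 35.6 FPKM to 16.8, 24.6 and 17.1 FPKM (log2 change -0.95, limma adjusted p = 0.0110). The desaturase gene fat-5 rose from 9.74 ± 2.07 to 19.3 ± 5.23 FPKM and hacd-1, for a hydroxyacyl-CoA dehydrogenase, from 31.6 ± 2.84 to 60.3 ± 1.18 FPKM (limma adjusted p = 0.0101 and 0.000327). The fall of the glyoxylate enzyme gene icl-1 (log2 change -0.60, limma adjusted p = 0.0318) was lost in 6 of 12 alternatives, with adjusted p-values up to 0.271, among them those without N2 replicates 2 or 3 and without mutant replicates 1 or 3. fat-6 did not pass (adjusted p = 0.312), and fmo-2 was too low to be tested.

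**Figure D2:**
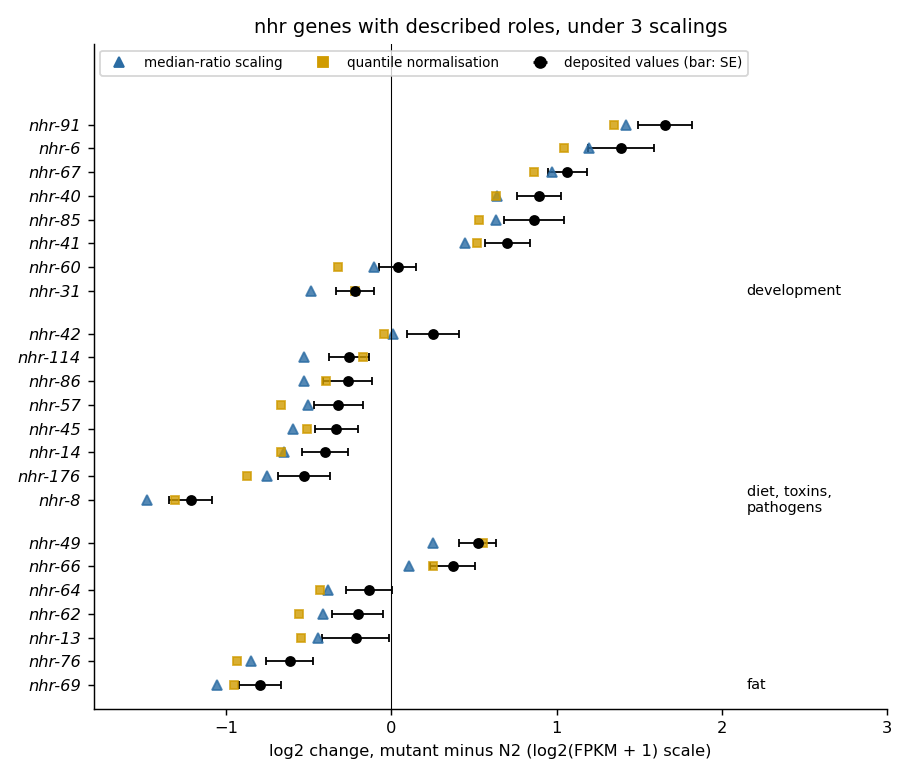
Change in log2(FPKM + 1), mutant minus N2, of the tested nhr genes with described roles in fat metabolism, in diet, toxins and pathogens, and in development. Black points are the deposited values with the SE as bars, triangles median-ratio scaling and squares quantile normalisation. nhr-91 and nhr-6 lie above 1 and nhr-8 below -1 under all 3.

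Receptors of diet, toxin and pathogen responses tended to lie below the shift of all genes. The list had a median log2 change of -0.33, and 3 of its 8 tested genes fell, where 15% of all tested genes fell. nhr-8 (F33D4.1, chromosome IV, 7710988 to 7714210), a relative of DAF-12 that acts in cholesterol balance and resistance to foreign compounds, fell from 42.1, 46.5 and 37.3 FPKM in N2 to 17.1, 16.9 and 18.3 FPKM in the mutant. The mutant libraries agreed closely and lay under every N2 library. The mean was 2.402-fold lower, a log2 change of -1.21 (SE 0.13, limma adjusted p = 0.000118), and the call held in all 12 alternatives.

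The other falls of the list were smaller. nhr-176, a receptor in the metabolism of the drug thiabendazole, went from 5.27, 6.03 and 4.95 FPKM to 3.34, 2.91 and 4.15 FPKM (log2 change -0.53, limma adjusted p = 0.0217). That call was lost without N2 replicate 2 and without mutant replicates 1 or 2 (adjusted p up to 0.0862). nhr-14, which acts in iron uptake and immunity, went from 14.1, 12.05 and 13.7 FPKM to 9.61, 10.7 and 9.09 FPKM (log2 change -0.40, limma adjusted p = 0.0411). It lost its call in 5 alternatives, including those without N2 replicates 1 or 3 and without mutant replicates 1 or 3 (adjusted p up to 0.161). For nhr-86, whose product senses a bacterial phenazine, the libraries overlapped at 22.4 to 28.8 FPKM in N2 and 18.8 to 22.8 FPKM in the mutant. nhr-45, which acts in the detoxification response to mitochondrial damage, lay at 19.5 to 22.9 FPKM in N2 and 15.4 to 17.2 FPKM in the mutant without overlap, yet had an adjusted p of 0.0599. Both nhr-86 and nhr-45 were called lower under each of the other scalings. nhr-42 had a log2 change of 0.25 (limma adjusted p = 0.203), which turned to -0.04 after quantile normalisation.

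nhr-57, a transcript induced by the hypoxia factor HIF-1, lay at 2.27, 2.71 and 2.53 FPKM in N2 and at 2.11, 1.97 and 1.39 FPKM in the mutant (log2 change -0.32, limma adjusted p = 0.102), with no overlap. Among 4 other genes induced by HIF-1, phy-2, a collagen prolyl hydroxylase gene, rose from 42.2 ± 8.13 to 86.9 ± 7.66 FPKM and cysl-2, a cysteine synthase gene, from 21.1 ± 0.0985 to 35.9 ± 2.00 FPKM. rhy-1, which restrains HIF-1, fell from 21.8 ± 2.47 to 10.5 ± 0.313 FPKM (SD, n = 3 each), and egl-9 had an adjusted p of 0.140 in limma. The list of 4 held 2 rises and 1 fall, where 34.6% of all tested genes rose and 15% fell.

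Most intestinal markers fell beside these receptors. Of 6 markers 5 had a row and were tested, and 4 fell, where 15% of all tested genes fell. pept-1 did not pass (log2 change -0.10, limma adjusted p = 0.473). None of the 5 was at 0, and their summed level was 1795 to 2216 FPKM in N2 and 1141 to 1485 FPKM in the mutant. elt-2, the intestinal GATA factor, went from 29.5, 29.9 and 26.8 FPKM to 20.9, 21.2 and 19.5 FPKM. Their part in the fall of nhr-8 and nhr-69 was not tested. In whole animals fewer cells of a type and less RNA per cell cannot be told apart.

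Of the 9 genes on the list of developmental receptors 8 were tested and 6 rose, where 34.6% of all tested genes rose. Their median log2 change was 0.88 against 0.24 for all tested genes, with nhr-67 among them, which passed the level filter through the mutant libraries alone. The exceptions were nhr-31, which supports proton pump genes in the excretory cell, and nhr-60, expressed in the lateral epidermis. nhr-31 lay at 43.7, 47.6 and 43.0 FPKM in N2 and at 38.3, 38.2 and 38.3 FPKM in the mutant (log2 change -0.22, limma adjusted p = 0.137), and was called lower with median-ratio scaling (adjusted p = 0.0098). nhr-60 lay near 1 FPKM in every library (log2 change 0.04, adjusted p = 0.784), and its sign turned under both scalings. nhr-2, expressed in the early embryo, had values from 0.289 to 1.56 FPKM and was not tested.

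nhr-91 (chromosome X, 15309375 to 15314898), the worm relative of the vertebrate germ cell nuclear factor, had the largest rise of this list on the log2(FPKM + 1) scale, whereas nhr-67 and nhr-6 rose more by fold of means. Its N2 libraries lay at 2.79, 3.80 and 3.80 FPKM and its mutant libraries at 12.04, 14.8 and 12.2 FPKM. The mean was 3.76-fold higher, a log2 change of 1.65 (SE 0.16, limma adjusted p = 7.31e-05). nhr-6 (chromosome III, 3573581 to 3578771), needed to form the spermatheca and for ovulation, rose from 1.19, 1.16 and 1.82 FPKM to 4.84, 7.11 and 4.10 FPKM. That is 3.84-fold on average, and every mutant library was above every N2 library (log2 change 1.39, SE 0.20, adjusted p = 0.000546).

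nhr-67 (chromosome IV, 11169748 to 11174791), the tailless orthologue that acts in the anchor cell of the gonad, was close to absent in N2. It stood at 0.0693, 0.107 and 0.112 FPKM there and at 1.32, 1.55 and 1.05 FPKM in the mutant, a 13.5-fold higher mean at a level that passed the filter through the mutant libraries alone (log2 change 1.07, limma adjusted p = 0.000141). nhr-85, a relative of the vertebrate clock repressor Rev-erb that acts in larval timing, rose from 3.65, 3.98 and 4.48 FPKM to 7.23, 10.6 and 7.005 FPKM (log2 change 0.87, limma adjusted p = 0.00407). Its call was lost after quantile normalisation (log2 change 0.53, adjusted p = 0.0597, with 0.00398 to 0.0597 over the alternatives). nhr-40, which acts in muscle and movement, rose from 9.01, 8.53 and 8.14 FPKM to 15.7, 17.4 and 17.2 FPKM, and nhr-41 from 12.4, 14.8 and 15.2 FPKM to 22.8, 25.3 and 22.6 FPKM (adjusted p = 0.000606 and 0.00277 in limma). Both calls held in all 12 alternatives.

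The receptors with clear orthologues in other animals overlapped with that list. Of 9 such genes 7 were tested, 5 rose (nhr-6, nhr-41, nhr-67, nhr-85 and nhr-91) and nhr-8 fell. Of all tested genes 34.6% rose and 15% fell. All 5 rises were also on the list of developmental receptors, and nhr-67 passed the level filter through the mutant libraries alone. nhr-48, a relative of nhr-8, lay at 12.2, 12.1 and 11.2 FPKM in N2 and at 10.9, 11.2 and 10.3 FPKM in the mutant, and the genotypes overlapped (limma adjusted p = 0.487). nhr-111 was listed at 0 in all 6 libraries. nhr-239 was listed at 0 in N2 and at 0.169, 0.154 and 0.252 FPKM in the mutant, and was not tested.

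Receptors under other names and the steroid hormone pathway gave a like mixture. daf-12, for the receptor of the dafachronic acids that governs dauer entry and larval stage, rose from 7.55, 9.04 and 8.99 FPKM to 15.95, 19.2 and 15.2 FPKM, 1.97-fold higher on average (limma adjusted p = 0.00127). unc-55, a motor neuron receptor, rose from 0.211 ± 0.129 to 1.15 ± 0.0975 FPKM, and sex-1, which counts X chromosomes in sex determination, fell from 7.06 ± 0.283 to 4.72 ± 0.375 FPKM (limma adjusted p = 0.000574 and 0.0151). The fall of sex-1 was lost without mutant replicate 3 (adjusted p = 0.0675, with 0.00132 to 0.0675 over the alternatives). unc-55 passed the level filter through the mutant libraries alone, so only a rise could be called for it. fax-1 and odr-7 were too low to be tested.

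Of the enzymes that make dafachronic acids, the cytochrome P450 gene daf-9 rose from 1.78, 1.17 and 1.32 FPKM to 3.54, 3.39 and 2.95 FPKM. The dehydrogenase gene dhs-16 rose from 1.12, 1.52 and 1.18 FPKM to 4.79, 3.27 and 4.45 FPKM (limma adjusted p = 0.00158 and 0.000394 for these genes). daf-36, for the oxygenase at the start of the pathway, went from 14.1 ± 2.29 to 10.2 ± 0.754 FPKM, at the threshold (adjusted p = 0.0487) and lost in 7 of 12 alternatives, among them all that left out a library except the one without N2 replicate 3 (up to 0.139). hsd-1 was listed at 0 throughout. Among coregulators din-1, for a corepressor of DAF-12, rose from 15.3, 18.2 and 17.6 FPKM to 38.4, 44.6 and 37.7 FPKM, and the acetyltransferase gene cbp-1 from 24.5 ± 1.89 to 38.4 ± 1.95 FPKM. The Mediator genes mdt-15, whose product is a coactivator of NHR-49, and mdt-6 had log2 changes of 0.10 and 0.11 (limma adjusted p = 0.537 and 0.461), and both turned negative after median-ratio scaling.

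The 5 nhr genes left out by the choice of members included 1 rise and 1 fall, where 34.6% of all tested genes rose and 15% fell. nhr-23, a regulator of moulting in the epidermis, rose from 9.90 ± 2.09 to 35.8 ± 3.09 FPKM. nhr-68, a regulator of propionate breakdown, fell from 104 ± 16.9 to 63.4 ± 7.85 FPKM (adjusted p = 5.57e-05 and 0.00525 in limma, SD, n = 3 each).

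Across the whole family the largest rises, apart from those of nhr-91 and nhr-6, were of genes with little described function. nhr-74 (C27C7.3, chromosome I, 11429014 to 11432156) led them on the log2(FPKM + 1) scale, at 0.964, 1.85 and 1.44 FPKM in N2 and 11.7, 11.2 and 9.02 FPKM in the mutant. The mean was 7.504-fold higher, a log2 change of 2.28 (SE 0.18, limma adjusted p = 2.44e-05). With a pseudocount of 0.1 the fainter nhr-259 and nhr-155 had larger log2 changes, at 3.71 and 3.38 against 2.86 for nhr-74. nhr-73 beside it rose from 0.812, 1.68 and 1.59 FPKM to 6.45, 4.70 and 3.98 FPKM. Both are known to be expressed in seam cells, the stem-like cells of the lateral epidermis. The list of seam-expressed receptors held 7 genes, of which these 2 were tested, nhr-75 had no row, and nhr-77, nhr-81, nhr-82 and nhr-89 were listed at 0 in all 6 libraries.

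nhr-168 (chromosome V, 13331114 to 13333871) rose from 1.40, 1.47 and 1.06 FPKM to 6.91, 4.79 and 7.41 FPKM, and nhr-21 (chromosome II, 7339229 to 7349133) from 5.63, 6.98 and 5.91 FPKM to 14.4, 19.4 and 15.4 FPKM. With nhr-91, nhr-21 was one of the rises that began from a moderate level. nhr-155 (chromosome V, 539460 to 541485) was at 0.238, 0.155 and 0.0893 FPKM in N2 and at 3.03, 2.86 and 1.90 FPKM in the mutant, and nhr-7 (chromosome IV, 11266265 to 11271352) at 0.534, 0.414 and 0.402 FPKM and at 1.88, 2.57 and 2.42 FPKM. nhr-155 and nhr-7, like nhr-244 and nhr-259, passed the filter through the mutant libraries alone. The limma adjusted p of the 12 largest rises did not exceed 0.000767, and none lost its call in an alternative that gave it a value.

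**Figure D3:**
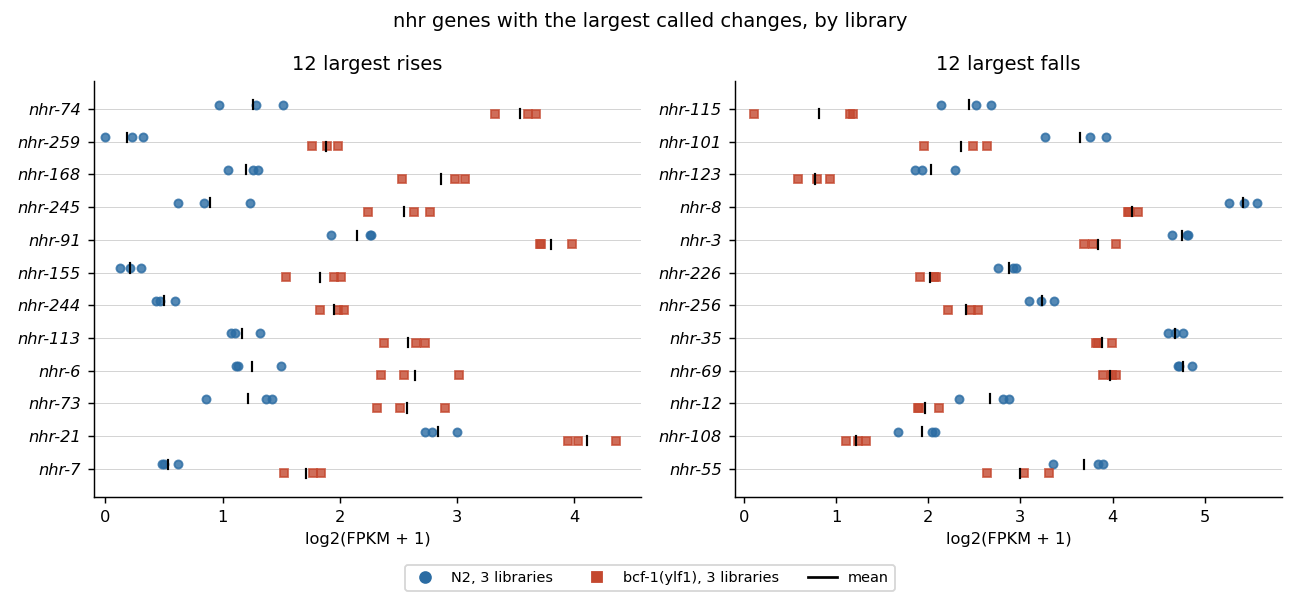
Values of log2(FPKM + 1) in each library for the 12 largest rises (left) and 12 largest falls (right) among nhr genes called by limma with no overlap between genotypes. Circles are N2, squares bcf-1(ylf1) and black ticks the means of 3 libraries. nhr-55 has the narrowest gap among the falls, and nhr-115 has 1 mutant library far below the other mutant libraries.

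Markers of other tissues moved in both directions beside these genes, where 34.6% of all tested genes rose and 15% fell. Of 6 hypodermal markers 5 were tested, of which 4 rose (the left-out nhr-23 among them) and 1 fell, and col-10, not tested, was at 0.0904 to 1.37 FPKM. Their summed level was 1161 to 1383 FPKM in N2 and 807 to 924 FPKM in the mutant, a sum that the falling collagen gene col-12 dominated. The collagen gene dpy-7 went from 21.6, 34.4 and 35.1 FPKM to 186, 181 and 208 FPKM. All 6 pharyngeal markers rose, with sums of 47.3 to 57.2 FPKM in N2 and 244.6 to 271 FPKM in the mutant. Among them ceh-22 passed the level filter through the mutant libraries alone, so only a rise could be called for it. Of 6 sperm markers 5 rose, with sums of 61.99 to 84.9 FPKM and 107 to 140 FPKM. Of 5 body wall muscle markers 4 rose, with sums of 1676 to 1874 FPKM and 2240 to 2421 FPKM, and of 5 neuronal markers with a row 1 rose. Of 6 oocyte markers 2 fell. No marker with a row was at 0, and the part of these tissues in the changes of the receptor genes was not tested.

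The largest falls were of nhr-115, nhr-101, nhr-123 and nhr-8. nhr-115 (chromosome V, 2292540 to 2294800) went from 5.41, 4.72 and 3.40 FPKM in N2 to 1.21, 0.0752 and 1.27 FPKM in the mutant, 5.29-fold lower on average (log2 change -1.63, SE 0.29, limma adjusted p = 0.00162). Mutant replicate 2 was far below the other mutant libraries, and the call held without it. nhr-123 (chromosome V, 451451 to 453759) fell from 2.61, 3.88 and 2.83 FPKM to 0.915, 0.726 and 0.502 FPKM, 4.35-fold lower, but it passed the level filter through N2 alone. nhr-101 (chromosome V, 11570476 to 11572549), next to the left-out nhr-68 at 11573440 to 11575709, fell from 12.5, 14.2 and 8.65 FPKM to 4.61, 2.88 and 5.22 FPKM, 2.79-fold lower (limma adjusted p = 0.00183).

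Among abundant receptors, nhr-3 (chromosome X, 14558504 to 14561423) fell from between 24.0 and 27.3 FPKM in N2 to 12.9, 11.9 and 15.4 FPKM, and nhr-35 (chromosome X, 4532691 to 4537546) from 23.2, 26.3 and 24.6 FPKM to 13.3, 14.98 and 13.1 FPKM. Their log2 changes were -0.92 and -0.80 (SE 0.14 and 0.13, limma adjusted p = 0.000847 and 0.00105). nhr-226, nhr-256, nhr-12, nhr-108 and nhr-55, all on chromosome V, completed the 12 largest falls with log2 changes from -0.86 to -0.70. The call of nhr-55 (adjusted p = 0.0267) was lost without N2 replicates 1 or 2 and without mutant replicates 1 or 2 (up to 0.0833), and the other 11 held in all alternatives that gave them a value.

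The family is unevenly spread over the chromosomes. Of the 264 genes 166 (62.9%) lie on chromosome V, where 100 were tested, 15 rose and 20 fell (against 32.4% and 20.1% of all tested genes there). On chromosome I, 8 of 11 tested family genes rose and nhr-69 fell (72.7% higher against 33.9% of all tested genes there), with a median log2 change of 1.36 against 0.27. The rises on chromosome I include nhr-244 and nhr-259, which passed the filter through the mutant libraries alone. Chromosome IV held 6 rises and 2 falls among 22 tested genes (27.3% and 9.1%, against 37.2% and 13.8% of all tested genes there). Chromosome II held 4 and 2 among 11 (36.4% and 18.2%, against 35.1% and 13.9%), and chromosome X 3 and 3 among 15 (20% of each, against 33% and 24.5%). Chromosome III had 3 tested genes, of which nhr-6 rose. These shares are descriptions, since neighbouring genes are not independent.

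**Figure D4:**
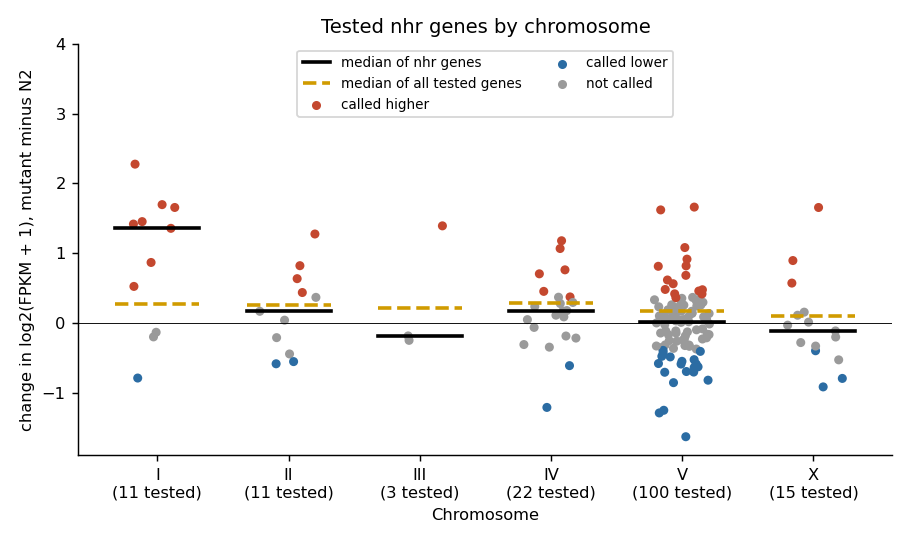
Change in log2(FPKM + 1), mutant minus N2, of each tested nhr gene by chromosome, coloured by the limma call, with horizontal position within a chromosome spread at random. Solid bars are the medians of nhr genes and dashed bars the medians of all tested genes of that chromosome. Chromosome I stands out with a median of 1.36 over 11 genes.

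Most rises on chromosome I came from a single stretch of 51.1 kb, from 11429014 to 11480071, singled out after its values were seen. It holds nhr-74, nhr-73, nhr-259, nhr-244, nhr-113 and nhr-245, and all 6 were called higher. nhr-259 and nhr-244 passed the level filter through the mutant libraries alone. nhr-74, nhr-73 and nhr-245 also needed mutant libraries to pass, since not all of their N2 libraries reached 1 FPKM. Only nhr-113 reached 1 FPKM in every N2 library. As the stretch was chosen from these values, none of the 6 is independent support for its direction. nhr-259 was at 0.171, 0.249 and 0 FPKM in N2 and at 2.96, 2.38 and 2.71 FPKM in the mutant. nhr-244 was at 0.383, 0.352 and 0.514 FPKM and at 3.10, 2.96 and 2.56 FPKM. nhr-113 rose from 1.15, 1.503 and 1.11 FPKM to 5.61, 4.21 and 5.27 FPKM, and nhr-245 from 0.536, 1.35 and 0.788 FPKM to 5.83, 3.74 and 5.22 FPKM. In none of the 6 did the genotypes overlap, and 58.4% of all tested genes likewise had no overlap.

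The genes between them moved likewise. Of the 6 other protein-coding genes with a row in that stretch, 5 rose, with a median log2 change of 1.19. Of all tested genes on chromosome I 33.9% rose, with a median log2 change of 0.27. ZK1025.2 rose from 9.11, 25.9 and 21.01 FPKM to 65.99, 45.5 and 58.2 FPKM, gtnt-53 from 2.10, 3.35 and 3.19 FPKM to 9.91, 8.06 and 7.95 FPKM and bah-1, which affects the nematode surface that bacterial biofilms bind, from 8.20, 8.62 and 9.08 FPKM to 26.0, 18.6 and 23.7 FPKM. C27C7.1 did not pass, at 18.4 to 34.5 FPKM in N2 and 28.9 to 29.96 FPKM in the mutant. Rises in the stretch were thus not limited to nhr genes.

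**Figure D5:**
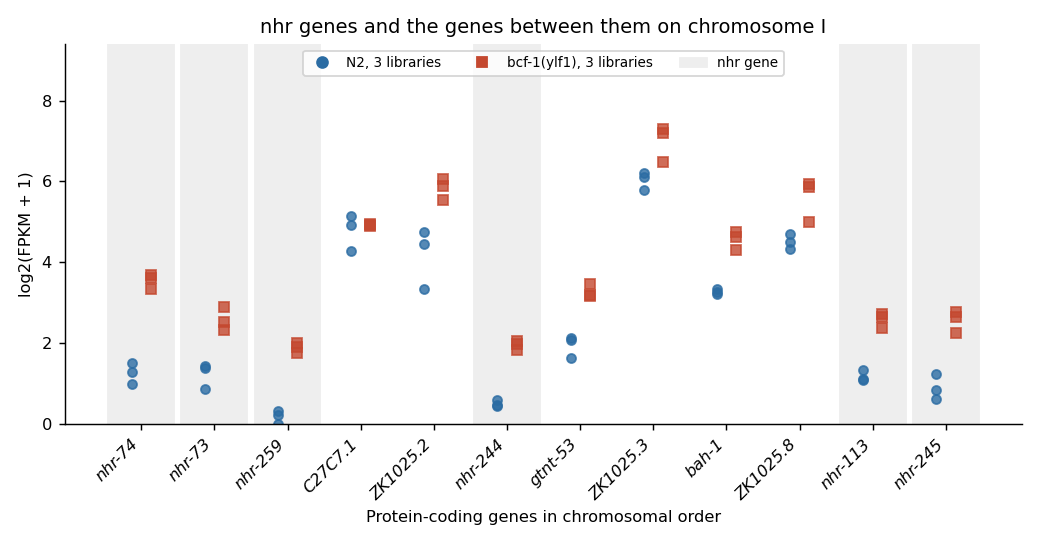
Values of log2(FPKM + 1) in each library for the protein-coding genes with a row in the 51.1 kb stretch of chromosome I, in chromosomal order, with nhr genes shaded. Circles are N2 and squares bcf-1(ylf1), and in all genes but C27C7.1 the mutant libraries lie above the N2 libraries.

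A dense group on the left arm of chromosome V, also singled out after its values were seen, did not move as one. Between 451451 and 491432 lie 11 family genes, all tested, of which 5 fell and 1 rose. Of all tested genes on chromosome V 20.1% fell and 32.4% rose. The falls were of nhr-123, which passed the filter through N2 alone, nhr-203, nhr-99, nhr-55 and nhr-106. nhr-98 rose from 1.16, 1.14 and 1.21 FPKM to 1.85, 2.62 and 2.55 FPKM, although it lies between nhr-123 and nhr-203. nhr-202, nhr-201, nhr-130, nhr-212 and nhr-211 did not pass, with log2 changes from -0.32 to 0.11.

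Over the genome 137 of the 264 genes lay in 44 runs of at least 2 family genes with no other protein-coding gene between them, which gave 93 neighbouring pairs. In 48 pairs both genes were tested. Both rose in 6 pairs, namely nhr-74 with nhr-73, nhr-73 with nhr-259, nhr-113 with nhr-245, nhr-234 with nhr-235, nhr-129 with nhr-168, and nhr-50 with nhr-63. Both fell in 2 pairs, nhr-99 with nhr-55 and nhr-115 with nhr-226. The members of 2 pairs went opposite ways, both involving nhr-98, 15 pairs had 1 called gene and 23 had none. Genes of such runs can be similar in sequence, and the sources used here do not say how shared reads were divided. Exons of 47 of the 264 genes overlap those of another protein-coding gene, among them nhr-8, nhr-69, nhr-101, nhr-108, nhr-6, nhr-85, nhr-91 and nhr-66 with a gene on the other strand and nhr-40 with one on the same strand, so their values are uncertain to that extent.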

How the data were processed

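RNA from 6 whole-animal libraries, 3 per genotype, was analysed. The deposited values form a single table of genes by libraries and are taken as FPKM. Neither header nor labels name the unit, which was inferred because values are not whole numbers and columns sum to unequal totals. The submitters' processing notes name fastp and genome build WBcel235. Aligner, quantifier, annotation release and strand setting: not given in the sources used here. The depth is unknown, so no counting interval is given. RefSeq locus tags (WBcel235) matched 19959 of 20894 rows. The table has no row for 14 further nhr symbols, all pseudogenes in RefSeq. Strand, exons and neighbours came from the Ensembl annotation of the same build.

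A test for counts had been planned in case the table held counts. Instead limma 3.58.1 in R 4.3.3 was fitted to log2(FPKM + 1) of the 13576 genes that reached 1 FPKM in 3 or more libraries, with genotype as the only term and a mean-variance trend. Tests were two-sided with Benjamini-Hochberg adjustment over all tested genes at 0.05, and every adjusted p is from this fit or its alternatives. The fit was tested on simulated data. Changes are mutant minus N2 and folds are ratios of mean FPKM. "Rose" and "fell" mean called. The alternatives were a pseudocount of 0.1, no filter, a filter on the mean over all libraries, median-ratio scaling, quantile normalisation, a replicate block and leaving out each library. Genes were named by rule: nhr-49, the genes of the role and pathway lists, the 12 largest called rises and falls without overlap, and the 8 most abundant members. Others were chosen after their values were seen. The members and lists were chosen with earlier results of these data known.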

Additional observations from a re-analysis of the deposited data

How the results depend on the processing

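The family count of 37 rises became 24 with median-ratio scaling and 21 with quantile normalisation, and ranged from 20 to 36 when 1 library was left out. The count of 28 falls became 54 and 63 under these scalings and ranged from 15 to 26 when 1 library was left out. Over all tested genes, 4703 rises and 2035 falls became 3022 and 3191 after median-ratio scaling, and ranged from 2877 to 5720 and from 1640 to 1870 when 1 library was left out. Leaving out a library also removed genes from the test, since the filter was applied again. Genes that had passed through the mutant libraries alone, 10 of the 37 family rises among them, could not be tested without a mutant library. Beyond that, the cause of these changes in the counts was not tested. With replicate number as a block, 32 family genes were higher and 23 lower. Same-numbered libraries had correlations of 0.01, -0.07 and -0.28 between their deviations from the genotype means. No library correlated best with its own number. With 3 libraries per genotype these values cannot settle whether same-numbered libraries were pairs. Without a filter 51 rose and 24 fell, with a pseudocount of 0.1 the counts were 35 and 28, and with the filter on the mean they were 32 and 28. Of 72 named and tested genes 52 were called, and 43 of these kept their call in each alternative that gave a value. Of the 20 named genes that did not pass, 14 gained a call in some alternative. Called lower with median-ratio scaling and with quantile normalisation were nhr-62, nhr-45, nhr-57, nhr-86, nhr-48, nhr-10, nhr-80 and nhr-1, with median-ratio scaling alone nhr-114, nhr-31 and fat-6, and with quantile normalisation alone nhr-13 and nhr-64. nhr-97 was called higher with quantile normalisation. Without N2 replicate 1, calls were gained by nhr-45, nhr-114, nhr-80, nhr-97 and nhr-1. Signs turned for genes that did not pass: after quantile normalisation nhr-42 (-0.042), nhr-60 (-0.32), nhr-25 (-0.007) and fat-6 (0.15), and after median-ratio scaling nhr-60 (-0.10), mdt-15 (-0.17) and mdt-6 (-0.15). The unknown depth limits the faint genes most. The alternative foreseen for counts was not run, since the values are not counts.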

Other observations

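The genes too faint for the test were 102 of the 264. Of these, 26 were listed at 0 in all 6 libraries and 76 had some signal, at most 1.73 FPKM in any library. Without a filter, 17 of the 76 were called higher by limma and 0 lower (21 and 0 at an unadjusted p under 0.05), while 27% and 11.6% of all genes with a value above 0 were called higher and lower. Those genes are mostly more abundant than the 76, so the shares are not comparable. The clearest was nhr-265, at 0, 0.0905 and 0.0899 FPKM in N2 and 1.16, 0.968 and 0.958 FPKM in the mutant. nhr-216 stood at 0, 0.188 and 0.0960 FPKM in N2 and 0.779, 0.593 and 0.597 FPKM in the mutant. Both were chosen after their values were seen.

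Of the 26 genes at 0, 8 lie on chromosome I between 12245456 and 12443780, a stretch of 198.3 kb chosen after its values were seen: nhr-82, nhr-81, nhr-165, nhr-217, nhr-77, nhr-174, nhr-89 and nhr-169. The remaining family gene there is nhr-265. Of 55 other protein-coding genes with a row in that stretch, 23 were also at 0 in every library and 7 reached the level needed for the test, of which 5 rose and 2 fell. Of these, oac-27, gmd-2 and bgnt-1.6 passed through the mutant libraries alone and E03H4.4 through N2 alone, so the filter fixed the direction of their calls. The C-type lectin gene clec-17 there rose from 0.838, 1.24 and 1.23 FPKM to 10.6, 10.3 and 9.27 FPKM.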
